A study of Mus musculus with 6 samples.

Results

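The 9 genes described here encode acyl-lysine readers of the mouse YEATS and double PHD finger (DPF) families. They are Mllt1, Mllt3, Yeats2, Yeats4, Dpf1, Dpf2, Dpf3, Kat6a and Kat6b, out of 21883 protein-coding genes on the chromosomes of the peak lists. They were chosen by protein family, with earlier results of these data known. Every peak that overlapped a gene's GRCm38 record or the 5 kb on either side of it was taken. The cells were P19, an embryonal carcinoma line of the mouse, grown in proliferation medium without a differentiating agent. Chromatin was prepared without crosslinking and precipitated with 1 antibody to crotonylated lysine 9 of histone H3 (H3K9cr) or 1 antibody to acetylated lysine 9 (H3K9ac), in 2 biological replicates each, so the antibody and the mark it reads are confounded and their parts cannot be told apart. The question was how the genomic positions of the 2 marks compare.

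Acetyl and crotonyl groups can be written on the same lysines, and by some of the same acyltransferases, the crotonyl group being longer and flat. YEATS domains hold the modified lysine in a tunnel lined by aromatic residues that leaves room for the longer group, and the DPF, a pair of zinc fingers folded as a unit, holds it in a hydrophobic pocket. Bromodomains, the best known acetyl-lysine readers, mostly bind crotonyl-lysine poorly. The genes examined therefore encode proteins of families that bind acylated lysines, and which lysine each protein binds was not examined. The peaks below show the marks on the genes themselves and not the binding of the proteins.

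The lists held 26096 to 28360 peaks, and read depth is not given in the sources used here. A peak's height is given as its pileup percentile, the rank of its summit coverage among all peaks of the same list, since the scale of the coverage differed between lists. All 5 embryonal carcinoma marker genes examined (Pou5f1, Sox2, Nanog, Utf1 and Lin28a) had a peak at an end of the gene in all 4 libraries, with a median pileup percentile of 84.1. Of 14 marker genes of liver, blood, muscle, fibroblasts and neurons, 9 had such a peak, with a median of 46.5. This was a share of 64.3%, beside 61.5% of all protein-coding genes. By the annotated start in place of the ends, 5 of the 14 had a peak within 1 kb in every library, beside 62.5% of all protein-coding genes. Among the 9 with a peak at an end were the neuronal genes Rbfox3 (75.6), Tubb3 (71.3) and Syt1 (57.0). These values are for the strongest peak anywhere in the record or its flanks. At Rbfox3 no library had a peak within 2.5 kb of the annotated start. Alb, Ttr, Ptprc, Hbb-bt and Lum had no peak at an end in any library. Their part in the results was not tested.

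Both marks lay at an end of all 9 reader genes in every library, an end peak being one that comes within 1 kb of where the record begins or finishes. The background is high, since 61.5% of protein-coding genes (13458) met the same rule, and 69.2% had a peak in the record or its flanks in every library. The loci held 14 and 17 peaks of H3K9cr and 16 and 16 of H3K9ac. End peaks numbered 10 and 12 for H3K9cr and 12 and 11 for H3K9ac. Peaks inside a gene and away from its ends numbered 3 and 4 for each mark, at Dpf1, Kat6b, Mllt3 and Dpf3. A single peak per library lay in a flank, next to Dpf2. Around the start, 4 genes (Mllt1, Yeats2, Yeats4 and Dpf2) had 1 compact peak in each library, and Dpf1 had a row of peaks along the gene. Mllt3, Dpf3 and Kat6b had a wide domain that was divided in some or all libraries. Kat6a had a narrower domain, divided in both H3K9ac libraries. It covered a mean of 2618.5 bp within 2.5 kb of the start, against 2431.25 bp at Dpf2.

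**Figure D1:**
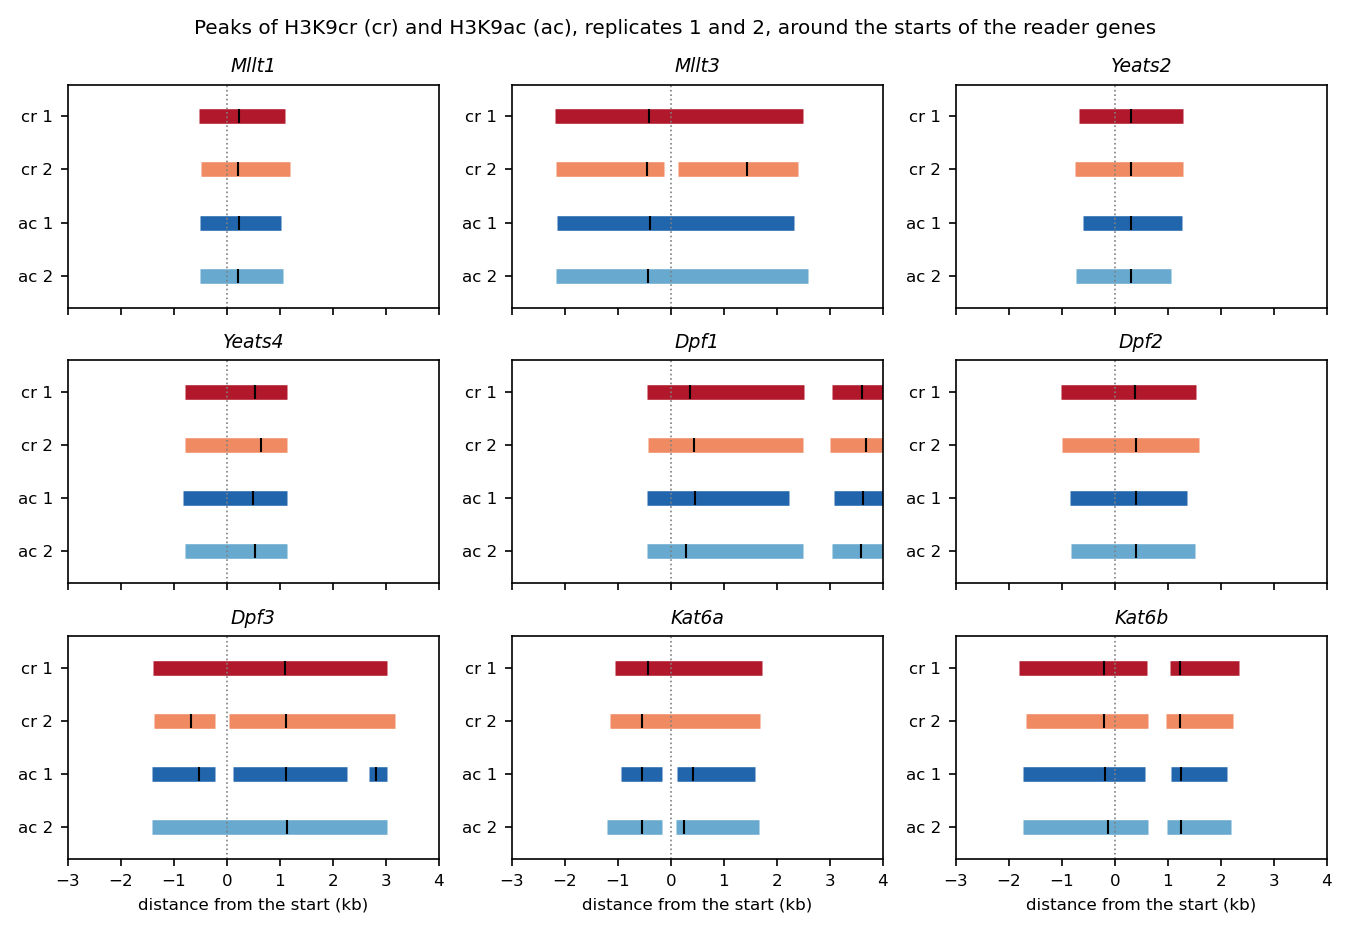
Peaks of each library (rows, H3K9cr in reds and H3K9ac in blues) around the start of the 9 genes. The x axis is the distance from the start in kb, positive into the gene, black ticks are summits, and the dotted line is the start (for Kat6a the low-coordinate end of its record). The start of Kat6a lies between 2 peaks in both H3K9ac libraries and inside 1 peak in both H3K9cr libraries.

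The sequences before the starts differed widely in the dinucleotide CpG, which is dense in the promoters of most broadly expressed genes. RefSeq (GRCm38.p6) gave starts for 8 of the 9 genes. The 250 bases before the start are shown for the 2 genes with the highest peaks (Dpf2 and Mllt1), for Mllt3 at a start with both marks and at an internal start with neither, and for Yeats4, which had the fewest CpG among the marked starts. They read 5′ to 3′ on the strand of the gene, with each CpG in capitals.
Dpf2: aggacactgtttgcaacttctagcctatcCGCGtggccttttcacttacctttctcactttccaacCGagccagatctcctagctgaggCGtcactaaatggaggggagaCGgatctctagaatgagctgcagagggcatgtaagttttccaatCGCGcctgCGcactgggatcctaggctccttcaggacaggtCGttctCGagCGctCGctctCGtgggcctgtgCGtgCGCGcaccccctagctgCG
Mllt1: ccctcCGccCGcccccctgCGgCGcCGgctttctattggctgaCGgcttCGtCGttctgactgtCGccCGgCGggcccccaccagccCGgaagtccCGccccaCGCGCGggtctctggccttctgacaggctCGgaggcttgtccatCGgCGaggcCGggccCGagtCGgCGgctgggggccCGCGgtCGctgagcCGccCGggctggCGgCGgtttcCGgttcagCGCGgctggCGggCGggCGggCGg
Mllt3: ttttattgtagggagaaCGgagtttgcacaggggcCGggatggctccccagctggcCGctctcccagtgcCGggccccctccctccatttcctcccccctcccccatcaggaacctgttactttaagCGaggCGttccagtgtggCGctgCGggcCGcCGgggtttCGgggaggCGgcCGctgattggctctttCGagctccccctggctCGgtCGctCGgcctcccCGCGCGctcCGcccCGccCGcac
Mllt3 internal: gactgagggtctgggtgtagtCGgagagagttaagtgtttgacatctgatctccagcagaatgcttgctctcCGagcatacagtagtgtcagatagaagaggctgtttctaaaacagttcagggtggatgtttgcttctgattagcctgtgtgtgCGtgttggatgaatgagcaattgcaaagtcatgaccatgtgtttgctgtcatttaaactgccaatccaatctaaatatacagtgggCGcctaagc
Yeats4: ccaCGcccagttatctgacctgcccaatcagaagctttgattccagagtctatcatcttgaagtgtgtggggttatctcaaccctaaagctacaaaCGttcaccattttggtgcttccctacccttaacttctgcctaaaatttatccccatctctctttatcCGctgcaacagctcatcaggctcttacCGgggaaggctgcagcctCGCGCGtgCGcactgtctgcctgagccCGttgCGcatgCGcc
These stretches lie at chr19:5912872-5913121, chr17:56935389-56935638, chr4:88033408-88033657, chr4:87806324-87806573 and chr10:117224508-117224757, all on the minus strand of GRCm38.p6.

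The 250 bases before the Mllt1 start held 37 CpG, more than or as many as 97.7% of the 21262 RefSeq starts of protein-coding genes. Dpf1 had 31 CpG, the 2 Kat6b starts 27 and 29, Yeats2 and the first Mllt3 start 23 each, Dpf2 17, Dpf3 16 and Yeats4 11. The internal Mllt3 start had 4 CpG, and no library had a peak within 1 kb of it. Over all genes the median was 15 CpG before starts of genes that carried both marks at an end throughout and 2 before starts of genes with no end peak in any library. Dpf2 had the highest peak of the members, and Mllt1, with the most CpG, came next. Peaks were lower than at Dpf2 both at Dpf1, Kat6b, Yeats2 and Mllt3, with more CpG, and at Dpf3 and Yeats4, with fewer. Whether CpG count and peak height go together was not tested.

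**Figure D2:**
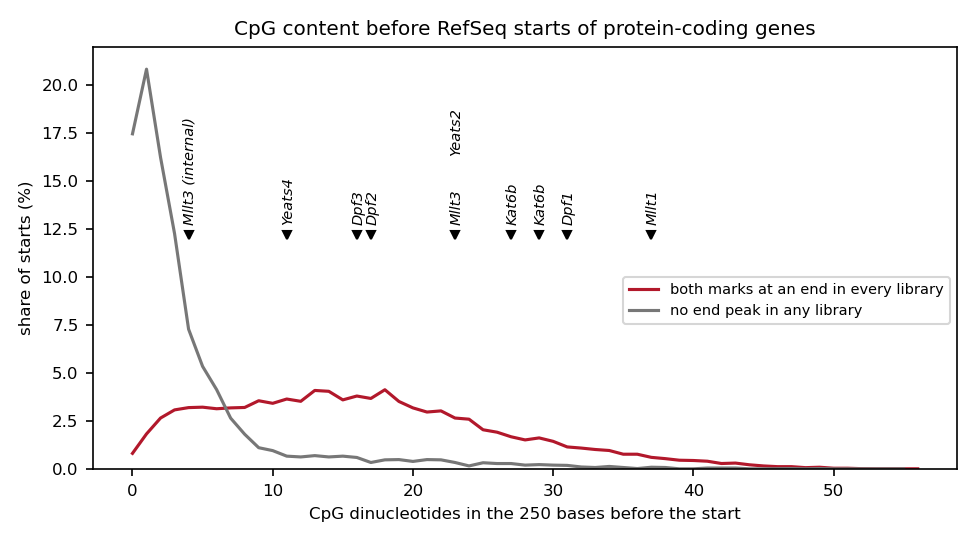
Share of RefSeq starts (y axis, %) by the number of CpG in the 250 bases before them (x axis), for genes marked by both at an end in all 4 libraries (red) and genes with no end peak (grey), with the reader genes as triangles. The internal Mllt3 start has 4 CpG, a count more common among unmarked starts, the other starts have 11 to 37, and the height of a triangle has no meaning.

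Short promoter motifs were searched on both strands of the same 250 bases. The GC box GGGCGG, which itself holds a CpG, was found before the starts of Mllt1 (5 copies), Mllt3 (1), Yeats2 (3), Dpf1 (4), Dpf3 (1) and Kat6b (7 before each of its starts), and 42.6% of all starts hold it. CCAAT was found before Mllt1, both Mllt3 starts, Yeats4, Dpf1, Dpf2 and Dpf3, with 3 copies at Dpf3 (35.4% of all starts). CCGGAA, the core of ETS factor sites, was found at Mllt1 in 2 copies (15.0% of all starts), and TATAAA at none of the members (11.6%). A match says only that the letters are present.

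Mllt1 encodes ENL, a YEATS subunit of the super elongation complex and of the DOT1L complex (chromosome 17, 56892608 to 56935509, minus strand). Its only peak had a pileup percentile of 92.0 and 87.1 in the H3K9cr libraries and 87.4 and 89.8 in the H3K9ac libraries, so the marks overlapped. The H3K9cr peaks spanned 1628 and 1682 bp, wider than the H3K9ac peaks of 1531 and 1575 bp. It ran from about 0.5 kb before the start to 1028 to 1191 bp into the gene, with its summit 209 to 231 bp after the start. The rest of the gene had no peak in any library.

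Mllt3 encodes AF9, the paralogue of ENL in the same complexes (chromosome 4, 87769925 to 88033407, minus strand). Its marked domain at the start was wide and low. Within 2.5 kb of the start, H3K9cr covered 4678 and 4299 bp, H3K9ac covered 4465 and 4660 bp, and the mean exceeded or equalled that of 98.7% of the 15145 genes with a peak at the locus in every library. The pileup percentile of its strongest peak was 55.8, 57.1, 53.7 and 56.8 in the libraries in that order, which placed the gene at the 19.8th percentile of the same genes. The summit lay upstream in all 4 libraries, at -452 to -393 bp from the start. Over 10937 genes, the summit of the highest peak near the RefSeq start lay after it in 75.5% to 76.3%. A further small peak, 335 bp wide, lay 247917 bp into the gene in H3K9ac replicate 2 alone, at the 3.30th percentile of its list.

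Yeats2 encodes the YEATS subunit of the ATAC acetyltransferase complex (chromosome 16, 20141053 to 20232573, plus strand). Its single peak had a pileup percentile of 82.1 and 82.0 for H3K9cr and 79.9 and 82.0 for H3K9ac, which overlapped. Widths of 1960 and 2028 bp for H3K9cr were above those of 1870 and 1792 bp for H3K9ac. The summit lay 302 to 309 bp after the start, a spread of 7 bp over the 4 libraries.

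Yeats4 encodes GAS41, a YEATS subunit of the SRCAP and TIP60 complexes, which exchange the histone variant H2A.Z (chromosome 10, 117215141 to 117224507, minus strand). Its start lies 21 bp from that of the noncoding RNA gene Gm31963 on the other strand, and the peak covered both starts in every library. Pileup percentiles were 75.03 and 76.9 for H3K9cr and 73.6 and 77.3 for H3K9ac. Widths were 1921, 1932, 1972 and 1930 bp in the same order of libraries, and they overlapped. The edge inside the gene fell 1138 to 1141 bp after the start in all 4 libraries, a spread of 3 bp, whereas the other edge had a spread of 51 bp.

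The DPF genes Dpf1, Dpf2 and Dpf3 encode alternative BAF45 subunits of the BAF chromatin remodelling complex. Of these, Dpf2 is broadly expressed, and Dpf1 and Dpf3 are more restricted to some tissues. Dpf2 (chromosome 19, 5896516 to 5912871, minus strand) had the highest peak of the members. Its pileup percentile was 95.3 and 94.9 for H3K9cr and 95.1 and 96.0 for H3K9ac. Its H3K9cr peaks spanned 2558 and 2601 bp and its H3K9ac peaks 2216 and 2350 bp, so the marks did not overlap in width. It also covered the start of the noncoding RNA gene Gm42067, 83 bp away and on the other strand. The flanking peak of this locus, at the 71.5th to 73.6th percentile, covered the RefSeq start of the neighbouring gene Tigd3 in all 4 libraries.

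Dpf1 (chromosome 7, 29303952 to 29317592, plus strand) was covered along much of its length. In the gene and its flanks H3K9cr covered 10247 and 10738 bp and H3K9ac 8918 and 9506 bp, with both H3K9cr libraries above, and the mean was at the 98.8th percentile of genes. The peak inside the gene, about 3.0 to 6.0 kb after the start, was higher than the start peak in every library, at percentiles of 64.1, 64.1, 64.7 and 61.5 against 58.9, 55.5, 58.6 and 60.2. By the percentile of the authors' fold enrichment it was also higher in 3 libraries (67.7, 56.6 and 68.7 against 63.5, 53.1 and 63.3), and it was lower in H3K9ac replicate 2, at 49.1 against 63.6. RefSeq gives no start within it, the nearest being that of Dpf1 itself, 3006 to 3079 bp away. Another peak of similar height (61.0 to 63.7) spanned 3283 to 4358 bp at the far end of Dpf1 and reached the end of Sipa1l3, whose RefSeq start on the minus strand is 201455 bp from that of Dpf1. A weak peak about 9 kb into the gene was listed in both H3K9cr libraries and H3K9ac replicate 2, at the 0.159th to 8.50th percentile, and not in H3K9ac replicate 1.

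**Figure D3:**
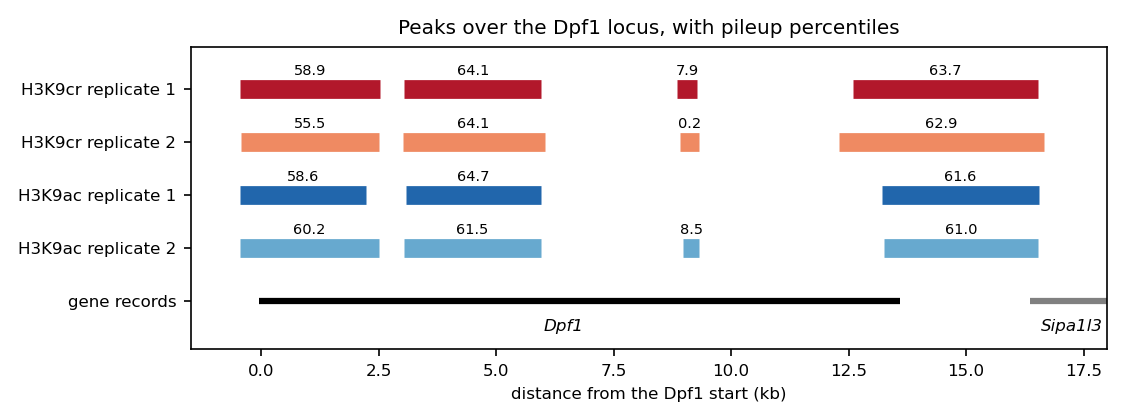
Peaks of the 4 libraries over the Dpf1 locus, by distance from the Dpf1 start in kb, each with its pileup percentile in its own list. The lower bars are the gene records of Dpf1 (black) and of part of Sipa1l3 (grey). The peak inside the gene has a higher pileup percentile than the start peak in every library.

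Dpf3 (chromosome 12, 83213751 to 83487736, minus strand) had the lowest peaks of the members. The strongest peak was at the 47.2nd and 45.6th percentile for H3K9cr and at the 46.1st and 55.2nd for H3K9ac, with H3K9ac replicate 2 apart from the other libraries. Covered length within 2.5 kb of the start was nevertheless 3899, 3607, 3332 and 3919 bp in the same order, at the 94.5th percentile of genes. The summit lay 1103 to 1132 bp after the start in all libraries. The domain was 1 peak in H3K9cr replicate 1 and H3K9ac replicate 2, 2 peaks in H3K9cr replicate 2 and 3 peaks in H3K9ac replicate 1. Each mark thus had an undivided and a divided library.

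Mllt3 and Dpf3 shared a width in the top 10% of genes and a height in the lowest 20%, limits that were chosen after their values were seen. Only 96 of the 15145 genes (0.634%) met both limits. No test was made of this combination.

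**Figure D4:**
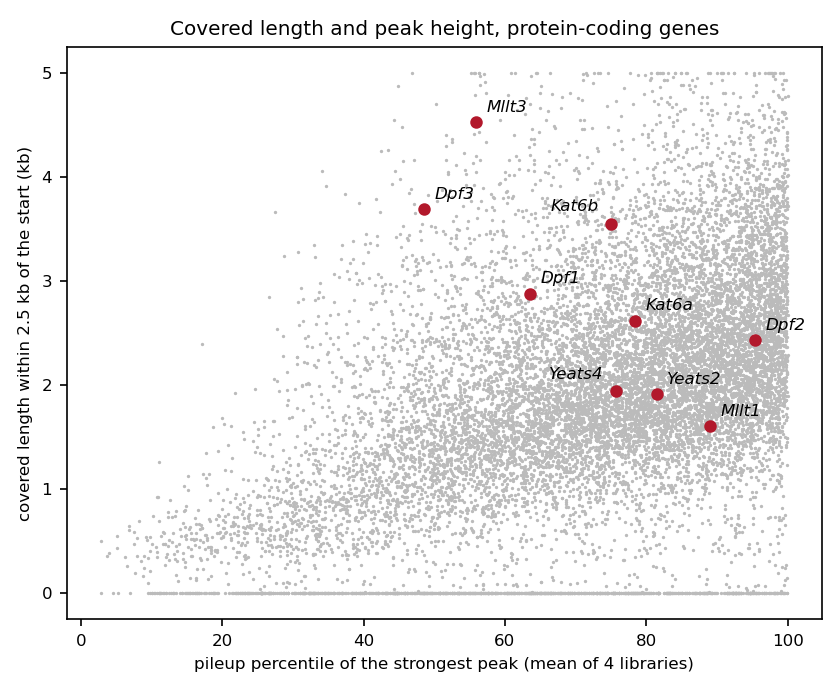
Covered length within 2.5 kb of the start (y axis, kb) against the pileup percentile of the strongest peak of the locus (x axis), as means of 4 libraries, for the reader genes (red) and 15145 protein-coding genes (grey). Mllt3 and Dpf3 lie at the upper left, with wide and low domains, and Mllt1 and Dpf2 at the right.

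Kat6a and Kat6b encode MOZ and MORF, acetyltransferases that carry a DPF and work with BRPF proteins. At Kat6a (chromosome 8, 22859442 to 22943259) the pileup percentile was 80.2 and 78.2 for H3K9cr and 74.8 and 80.7 for H3K9ac, and the marks overlapped. H3K9cr had 1 peak of 2765 and 2830 bp across the low-coordinate end of the gene record. H3K9ac had 2 peaks there, of 785 and 1486 bp in replicate 1 and of 1046 and 1562 bp in replicate 2. The gap between them was 264 and 261 bp long and held the end of the record. The summit of the highest peak lay outside the record in every library, at -540 to -422 bp from its end. The record of the noncoding RNA gene Gm46036 overlaps this end.

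At Kat6b (chromosome 14, 21499216 to 21672478, plus strand) all 4 libraries had a pair of peaks. One covered both RefSeq starts, which are 15 bp apart, with percentiles of 73.3 and 73.4 for H3K9cr and 72.5 and 69.6 for H3K9ac. The other began 976 to 1060 bp after the first of these starts, at percentiles of 74.3 and 74.5 for H3K9cr and 74.5 and 76.7 for H3K9ac, and was the higher peak of the pair in every library. The H3K9cr peaks were 434 and 340 bp apart and the H3K9ac peaks 480 and 370 bp. A weak peak 87294 bp after the start, at the 1.13th percentile, was listed in H3K9cr replicate 2 alone.

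Ranked by the strongest peak, the members kept nearly the same order in the 4 libraries. Dpf2 came first, followed by Mllt1, Yeats2 and Kat6a, and Dpf1, Mllt3 and Dpf3 came last, in all 4 libraries. Yeats4 stood above Kat6b in 3 libraries and below it in H3K9ac replicate 1. Over the libraries the ranges of Dpf2 (94.9 to 96.0), Mllt1 (87.1 to 92.0) and Yeats2 (79.9 to 82.1) did not overlap. The ranges of Yeats2, Kat6a (74.8 to 80.7), Yeats4 (73.6 to 77.3) and Kat6b (74.3 to 76.7) overlapped from each to the next, and so did those of Mllt3 (53.7 to 57.1) and Dpf3 (45.6 to 55.2). Dpf1 (61.5 to 64.7) overlapped neither neighbour. The median over the members was 75.03 and 76.9 for H3K9cr and 74.5 and 77.3 for H3K9ac, beside 78.2, 78.3, 76.2 and 77.8 over the 15145 genes.

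**Figure D5:**
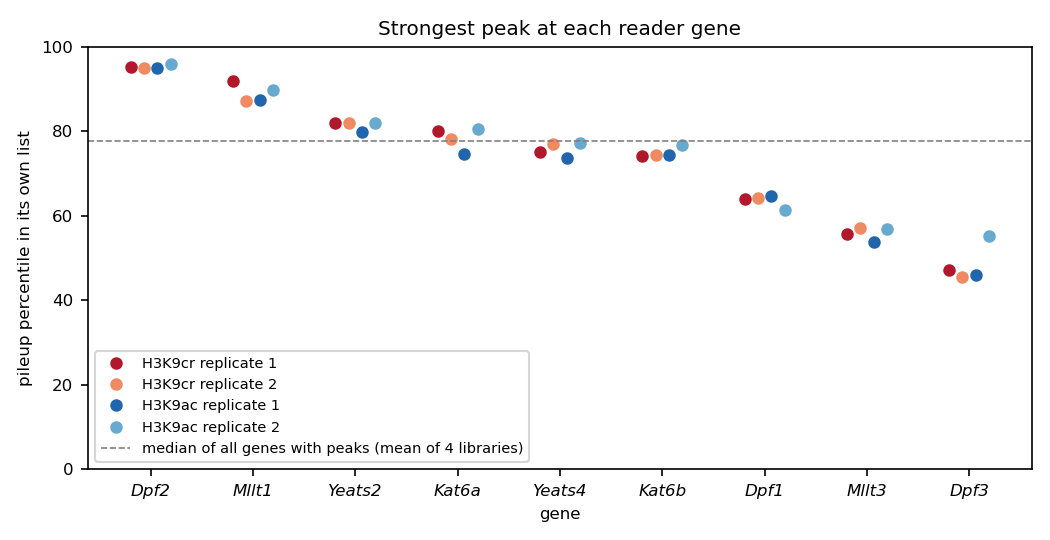
Pileup percentile of the strongest peak at each reader gene (y axis, rank within the library's own list), 1 point per library. Genes are ordered by their mean, and the dashed line is the median of all genes with peaks. Both marks run from Dpf2 at 94.9 to 96.0 down to Dpf3 at 45.6 to 55.2, and Yeats4 and Kat6b change places in H3K9ac replicate 1.

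Where a domain was divided at the start, the start itself was outside every peak. This was the case at Mllt3 in H3K9cr replicate 2, at Dpf3 in H3K9cr replicate 2 and H3K9ac replicate 1, and at Kat6a in both H3K9ac libraries. The gaps were 261 to 343 bp long. Kat6a alone among the members differed by mark, its start being taken as the record end with more peak coverage, since RefSeq gave none. That position was inside a peak in both H3K9cr libraries and in neither H3K9ac library. Among 13680 genes with a peak within 1 kb of the start in every library, 88 (0.643%) showed that pattern and 16 (0.117%) the reverse. The start was inside a peak in every library at 85.9%, in some libraries only at 7.87% and in none at 6.22% of these genes. Of the members, 6 were in the first group, 3 in the second and 0 in the third.

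H3K9cr covered more DNA than H3K9ac at Mllt1, Yeats2, Dpf1, Dpf2, Kat6a and Kat6b. Over the gene and its flanks both H3K9cr libraries exceeded both H3K9ac libraries at these 6 of 9 members, and the reverse was found at 0. Over all 15145 genes 39.5% showed the first pattern and 3.08% the second. Within 2.5 kb of the start the first pattern held at 5 members, Dpf1 being the exception, against 32% of genes, and the reverse at 0, against 3.94%. The exact two-sided permutation test of 2 libraries against 2 cannot go below p = 0.333, the value at each of the 6 genes. The size was 1655 bp ± 38.2 against 1553 bp ± 31.1 at Mllt1, 10492.5 bp ± 347 against 9212 bp ± 416 at Dpf1 and 2797.5 bp ± 46.0 against 2439.5 bp ± 238 at Kat6a (SD, n = 2 each). At Kat6a the H3K9ac values leave out the gap between its 2 peaks. Between the outer edges H3K9ac spanned 2535 bp in replicate 1 and 2869 bp in replicate 2, against H3K9cr peaks of 2765 and 2830 bp. The order of the marks at this gene therefore rests on the gap.

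Relative to the median of each library, covered length did not differ between the marks past the threshold at any member. In limma's moderated test on log2 covered length, with Benjamini-Hochberg adjustment over 15145 genes, 0 genes passed in either direction (0%). At an unadjusted p under 0.05 there were 863 genes (5.7%), of which 0 were members. The H3K9cr minus H3K9ac difference was -0.18 ± 0.076 (SE) on the log2 scale at Mllt3 (limma adjusted p = 0.870), -0.11 ± 0.078 at Yeats4 (0.873), 0.11 ± 0.068 at Kat6a (0.873) and 0.10 ± 0.045 at Dpf1 (0.873). The others lay between -0.00055 and 0.056. The difference was above 0 at 6 members, with a median of 0.03 over the 9 against -0.01 over all genes. Without centring it was above 0 at 7 of 9 members and at 82.2% of all genes, compared with 44.8% of all genes with centring.

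Peak height differed between the marks past the threshold at none of the members. At 8 of 9 members the pileup percentiles of the marks overlapped, and at Kat6b both H3K9ac libraries were above both H3K9cr libraries (exact permutation p = 0.333, n = 2 each). Over all genes 8.97% had H3K9ac higher in this way and 32.4% had H3K9cr higher, which no member had. In limma on normal scores of the ranks, 11 of 15145 genes (0.0726%) passed with H3K9cr higher and 0 with H3K9ac higher, and 0 of them were members. The unadjusted p was under 0.05 at 1388 genes (9.16%) and at 0 members. The largest difference among members was -0.11 ± 0.089 (SE) at Dpf3 (limma adjusted p = 0.727), where H3K9ac replicate 2 stood apart from the other libraries. Over the gene records without flanks it was instead 0.33 ± 0.079 at Kat6a (unadjusted p = 0.0035, limma adjusted p = 0.449), since the higher H3K9ac peak of that gene lies outside its record in both libraries and the lower one, at percentiles of 65.8 and 71.1, was then ranked. The median difference was 0.03 over the members and 0.05 over all genes.

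The overlap of the marks in bp was close to that of replicates of a mark. Over the 9 loci together, the Jaccard index (shared over combined covered length) of replicates was 0.929 for H3K9cr and 0.903 for H3K9ac. It was 0.863 to 0.926 for the 4 pairs of different marks, with a mean of 0.893, so that the ranges overlapped. Yeats4 had the most alike peaks, with 0.974 to 0.996 between marks. Kat6a had 0.802 to 0.880 between marks, against 0.960 and 0.870 between replicates. Dpf3 had 0.995 between H3K9cr replicate 1 and H3K9ac replicate 2 and 0.826 between the H3K9ac replicates. At Mllt1, Dpf1, Dpf2 and Kat6b the mean between marks was also below that between replicates (0.929 against 0.951, 0.873 against 0.932, 0.914 against 0.950 and 0.882 against 0.887), and at Mllt3, Yeats2, Yeats4 and Dpf3 it was above. These values are descriptions, with no test.

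The authors' fold enrichment ranked some members differently from the pileup. At Mllt1 it was 81.0 and 47.4 for H3K9cr and 74.8 and 58.7 for H3K9ac, or percentiles of 87.1, 72.7, 89.5 and 74.4, while at Dpf2 the percentiles were 97.1, 86.6, 96.9 and 87.5. In both genes replicate 2 of each mark was lower, as it was at Dpf1 and Kat6a. At Mllt3 and Yeats4 it was higher, and at Yeats2, Dpf3 and Kat6b the marks differed in this. The percentiles at Yeats4 were 71.0 and 81.5 for H3K9cr and 77.0 and 81.9 for H3K9ac. The local background that the fold implies at the Mllt1 summit was 3.0 and 5.0 for H3K9cr and 1.7 and 5.0 for H3K9ac, and at the Dpf2 start peak 1.9 and 4.0, and 1.6 and 4.0. At Yeats2 it was 1.9, 2.0, 1.6 and 2.0, and the fold percentiles there ranged from 84.5 to 86.6. The implied background at Yeats4 was 3.0 and 2.0 for H3K9cr and 1.7 and 2.0 for H3K9ac. Which input served which library is not given in the sources used here.

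Partner genes chosen from the complexes in which these readers work also carried both marks. The lists do not hold every gene of each complex, and they were chosen with earlier results of these data known. Counts and medians here depend on that choice. All 47 partner genes examined had end peaks of both marks in every library, against 61.5% of protein-coding genes. These were 11 of 11 elongation and DOT1L genes, 10 of 10 ATAC genes and 10 of 10 SRCAP and TIP60 genes. The rest were 6 of 6 MOZ and MORF partners and 10 of 10 BAF core subunits. Their median pileup percentile was 89.1, beside 75.7 for the reader genes and 77.8 for all genes with peaks. Each of the 47 stood above Dpf3, the lowest reader. Dpf3 was at the 13.3rd percentile of the 15145 genes with peaks, so most of those genes stood above it too. Medians by complex were 87.8 for elongation and DOT1L genes, 85.8 for ATAC, 91.5 for SRCAP and TIP60, 86.2 for MOZ and MORF partners and 89.4 for BAF.

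Among 23 bromodomain reader genes, 17 (73.9%) had end peaks of both marks throughout, and all 23 had peaks within the gene or its flanks. Atad2b, Baz1a, Brd3, Brdt and Phip were among the 6 without an end peak. By RefSeq starts in place of record ends, 21 of the 23 had a peak within 1 kb of the start in every library, and so did all 9 YEATS and DPF genes, Kat6a by the end of its record. The share over all protein-coding genes under that rule was 62.5%. The median pileup percentile of the bromodomain genes was 84.7. These counts and medians describe lists that were chosen by function, with earlier results of these data known. The lists were not tested against each other.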

How the data were processed

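The 4 peak lists come from 2 H3K9cr and 2 H3K9ac libraries of P19 cells, grouped by their titles; the 2 inputs were not analysed here. Bowtie2 2.4.1, MACS2 2.2.7.1 and GRCm38 are named in the submitters' processing notes; their options and the read depth were not stated. Per the file headers, the deposited values are the pileup at the summit (a coverage signal), the fold enrichment (a ratio to local background) and significance as -log10 p and -log10 q, beside the position of the peak. The smallest -log10 q was 2.02 to 2.06, so sites below that level are unlisted, and an unlisted site can still carry a mark.

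Positions were counted from 1 and overlap meant at least 1 bp. Gene records came from RefSeq (GRCm38.p6), and starts and strand from its promoter table. That table has no exons, and where it had no start, the record end with more coverage was used. Of several starts, the most covered was taken. Percentiles are ranks within a list. The implied background is the pileup plus 1, divided by the fold, minus 1.

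Covered length (log2 bp, centred on the library median) and ranks (as normal scores) were compared in limma 3.58.1 (R 4.3.3), with an adjusted p of 0.05 as the threshold; the limma code was tested on simulated data. Single values were compared by exact permutation. Other steps used Python 3.11.15, numpy 2.4.6, pandas 2.3.3 and scipy 1.17.1, with figures by matplotlib 3.10.9. Named genes were all 9 members, with the partner and bromodomain lists as counts and up to 5 names. Beside the markers counted, 1 more marker gene of another cell type was listed and is not reported here. The members and lists were chosen with earlier results of these data known. Alternatives were other end windows and flanks, a stricter q (-log10 of at least 5), equal numbers of peaks, other scalings, a replicate block and leaving out each library.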

Additional observations from a re-analysis of the deposited data

How the results depend on the processing

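The count of 9 members with both marks at an end was unchanged under each alternative but 1: with the summit itself required in the end window it was 8, without Dpf3, whose summit lies over 1 kb into the gene. Starts from the RefSeq promoter table, an alternative chosen after seeing the data, also gave 9. Jaccard means over the 9 loci moved by less than their spread, from 0.872 to 0.9085 between marks and from 0.903 to 0.929 within marks. No member passed in limma under any setting for covered length or pileup rank. For covered length none of the genes tested did, their number being 14026 to 16255 by setting. The number of genes past the threshold for pileup rank was 11, and it was 0 with the rank of fold enrichment, 98 with the replicate block and 74 to 708 when a library was left out; the cause was not tested, and a fit on 3 libraries assumes that a lone library varies like the other mark. Shared replicate numbers mark no stated pairing, and same-numbered libraries deviated together weakly (r = 0.10 for covered length and 0.05 for pileup rank, across 15145 genes), so the block is given here only; for covered length it gave 0 genes.

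Signs of the small, uncalled differences between marks were not stable, and the cause was not tested. For covered length, 84 of 99 values under alternatives kept the sign, and for pileup rank 66 of 81. These totals include the replicate block, which in this balanced design cannot change the difference itself. Mllt1 (-0.00055) became 0.092 without centring, 0.037 without flanks, 0.0019 with the stricter q, 0.014 with equal numbers of peaks and 3.25 bp within 2.5 kb of the start. With flanks of 20 kb Yeats2 became -0.033, Dpf2 -0.13 and Kat6b -0.0023, and Kat6b became -0.014 with the stricter q and -0.0026 with equal numbers. Leaving out a library gave -0.028 to 0.027 for Mllt1, -0.047 to 0.11 for Yeats2 and -0.076 to 0.11 for Dpf3. For pileup rank, the rank of fold enrichment gave -0.085 for Mllt1 and -0.10 for Yeats4. Without flanks Mllt3 became -0.064, since its upstream peak in H3K9cr replicate 2 then falls outside the window, and Kat6a moved most of all members, from 0.047 to 0.33 (adjusted p = 0.449), since its higher H3K9ac peak does too. Equal numbers gave -0.036 for Mllt3, -0.030 for Yeats4 and -0.030 for Dpf1. Leaving out a library gave -0.075 to 0.20 for Mllt1, -0.010 to 0.070 for Mllt3, -0.042 to 0.074 for Yeats4, -0.017 to 0.069 for Dpf1, -0.087 to 0.0017 for Dpf2, -0.22 to 0.0089 for Dpf3 and -0.052 to 0.15 for Kat6a. Peak lists give no read depth, so wider peaks from deeper sequencing and from more signal cannot be told apart.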
